A study of Mus musculus with 10 samples.

Results

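The D cyclins Ccnd1, Ccnd2 and Ccnd3 and the kinases they activate, Cdk4 and Cdk6, were followed after a block of transcription in mouse myeloblasts held in high or low interleukin-3 (IL-3). All probe sets whose platform symbol is 1 of these 5 genes were taken, which gave 15 of the 22690 probe sets on the array: 3 for Ccnd1, 7 for Ccnd2, 1 for Ccnd3, 3 for Cdk4 and 1 for Cdk6. The cells were 32Dcl3 myeloblasts, a mouse line of early myeloid cells that grows in culture only with IL-3. All cultures had IL-3 washed out, and the 2 h and 4 h groups were given actinomycin D at 10 µg/ml, which stops transcription, so those arrays read the RNA that was left. The 5 groups were cells at 0 h, cells 2 h and 4 h after addition of high IL-3 (1 ng/ml, the high dose below), and cells 2 h and 4 h after addition of low IL-3 (10 pg/ml, the low dose). Each group held 2 arrays, 1 from each of 2 experiments, and the 5 arrays of an experiment came from 1 divided culture. The titles place the 0 h sample after actinomycin D, and in the paper's scheme time 0 follows addition of the drug. Another label has it collected just before, so the labels do not settle whether it had received the drug.

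D-type cyclins rise when growth factors reach a cell and bind CDK4 or CDK6 to form active kinases. These kinases phosphorylate the retinoblastoma protein and its relatives, which frees E2F transcription factors and lets the cell pass from G1 into S phase. INK4 proteins such as p18 and p19 bind CDK4 and CDK6 and block them, while the CIP/KIP proteins p21 and p27 act on several cyclin and kinase pairs. Cyclin D2 and cyclin D3 are the D cyclins best known from blood cells, and their genes, like that of CDK6, are known for roles in blood cell growth and in leukemia.

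Values are linear intensities, 1 per probe set and array, after the study's joint normalization of all 10 arrays. They are relative to the other signals on an array: RNA per cell was not measured, and in such bulk samples fewer cells holding a transcript and less of it per cell cannot be told apart. Median intensity lay between 48.8 and 70.6 per array and was highest at 0 h within each experiment. The label of the cells was compared with marker genes: 10 of 13 measured myeloblast markers reached a mean of 50, Ctsg and Mpo among them, while Elane, Kit and Cd34 did not. Of the mast cell and basophil markers 4 of 7 reached it, of the macrophage markers 3 of 6, and of the lymphoid, erythroid and fibroblast markers 0 of 5, 0 of 3 and 0 of 4. The summed myeloblast markers ranged from 7014 to 16990 over the arrays and the summed mast cell and basophil markers from 1563 to 3930. Both sums were highest at 0 h within each experiment, and their part in the changes from 0 h was not tested. None of the 17 markers that reached 50 passed the threshold between the IL-3 doses in the test described next.

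limma was fitted to log2(intensity + 16), with experiment as blocking factor, for the 11856 probe sets averaging at least 50 over the 10 arrays. A probe set was called at a Benjamini-Hochberg adjusted p under 0.05. This left 12 of the 15 probe sets of D cyclins and their kinases, since all 3 for Ccnd1 were dimmer. All log2 values below are differences on this scale. Probe sets of 1 gene share their RNA and are not replicates, and the stretch of the transcript that each of them reads was not analysed here. Since 2 cultures were divided among the groups, p-values reflect how far the group differences varied between those alone. The block takes out the mean difference of the 2 experiments, and the variance is drawn toward a trend over all tested probe sets.

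Ccnd1, the gene of cyclin D1, gave signals at the dim end of the array. Probe set 1417420_at started at 65.7 in experiment 1 and 28.7 in experiment 2. The high dose arrays read 43.9 and 37.8 after 2 h, then 46.4 and 37.5 after 4 h. The low dose arrays read 65.4 and 30.1 after 2 h, then 52.2 and 31.9 after 4 h. The 5 arrays of experiment 1 were all above the 5 of experiment 2, with 0 h as the highest group in experiment 1 and the lowest in experiment 2. Probe set 1448698_at ranged from 25.5 to 40.6, and 1417419_at from 1 to 5.002. None of the 3 entered the test, and no decay can be read from signals of this size.

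Ccnd2, the gene of cyclin D2, was read by 7 probe sets that passed the filter. In probe set 1416122_at, the brightest of them, intensity started at 2817 in experiment 1 and 2285 in experiment 2. The high dose arrays read 2276 and 1949 after 2 h, then 2424 and 2023 after 4 h. The low dose arrays read 2579 and 2144 after 2 h, then 2560 and 2277 after 4 h. Within each experiment 0 h was the highest array, and the high IL-3 array lay below its low IL-3 partner at both times. The means of the 5 groups were within the SD of their neighbours in rank, and experiment 1 was brighter in every group. With the high dose the signal stood at 83.1% ± 3.18 of its start after 2 h (SD, n = 2) and 87.3% ± 1.76 after 4 h. With the low dose it stood at 92.7% ± 1.61 and 95.3% ± 6.21.

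Probe set 1434745_at gave the same kind of record. It started at 2303 and 1971, went to 1907 and 1706 with the high dose after 2 h, and then to 2152 and 1888. With the low dose it went to 2046 and 1994, then to 2261 and 2253. The 2 h arrays in high IL-3 were the lowest of each experiment, and high was below low in all 4 pairs. Probe set 1455956_x_at, whose suffix marks probes that may also bind other transcripts, started at 2002 and 1262. It went to 1572 and 1192, then 1644 and 1237 with the high dose, and to 1762 and 1275, then 1810 and 1326 with the low dose. Here too all 4 pairs were lower in high IL-3, and the 2 experiments did not overlap. Probe set 1430127_a_at, whose suffix marks probes shared by several transcripts of the gene, ranged from 1271 to 1858, with high below low in 3 of 4 pairs.

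None of the 3 dimmer Ccnd2 probe sets was called lower at any time. Probe set 1448229_s_at, of a class whose probes match more than 1 transcript, started at 377 and 439. With the high dose it went to 326 and 389, then up to 440 and 533. With the low dose it went to 380 and 497, then to 467 and 662. The order of the groups was the same in both experiments, from the 4 h arrays in low IL-3 at the top to the 2 h arrays in high IL-3 at the bottom. Probe set 1416124_at started at 79.7 and 123 and lay above that on every later array of the same experiment, reaching 134 and 172 after 4 h with the high dose and 133 and 201 with the low dose. Probe set 1416123_at ranged from 80.2 to 119 in experiment 1 and from 151 to 228 in experiment 2.

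**Figure D1:**
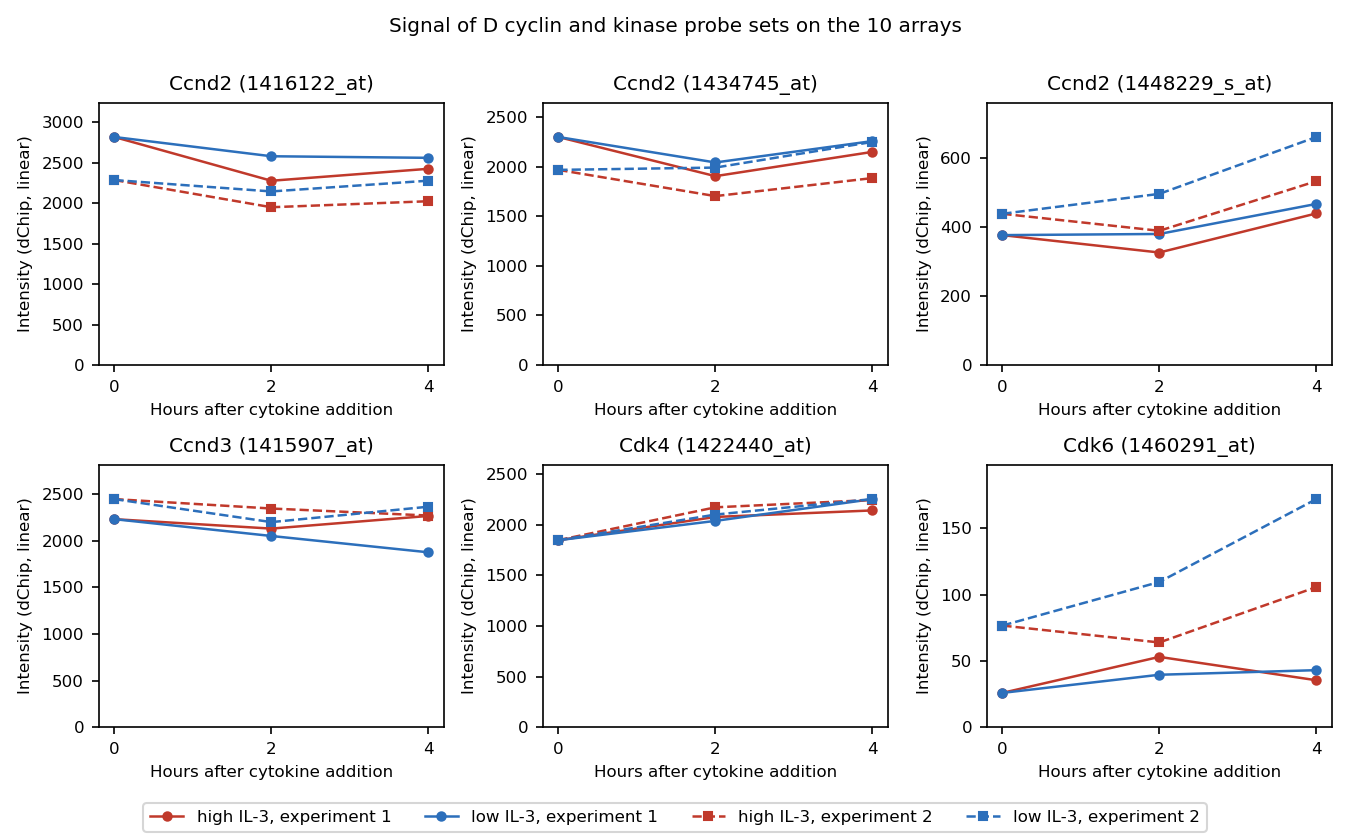
Intensity (dChip, linear, axes from 0) against hours after cytokine addition for 6 probe sets: 3 for Ccnd2 and 1 each for Ccnd3, Cdk4 and Cdk6. Red is high and blue low IL-3, circles with solid lines are experiment 1 and squares with dashed lines experiment 2, and each point is 1 array. The Ccnd2 and Cdk4 panels were picked for the patterns they show. The Ccnd2 curves shown for high IL-3 lie below those for low IL-3 in both experiments. Cdk4 1422440_at rises from 1848 and 1849 in both doses, and Cdk6 is dimmer in experiment 1 at 4 h. Of the 7 Ccnd2 probe sets, 4 had high below low in all 4 pairs. Not shown are 1416123_at and 1430127_a_at, with high above low in 1 of 4 pairs, and 1416124_at, in 2 of 4. The brightest Cdk4 probe set, 1422441_x_at, also not shown, changed by 0.05 (log2) from 0 h to 4 h in low IL-3.

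Ccnd3, the gene of cyclin D3, had 1 probe set, 1415907_at. It started at 2232 in experiment 1 and 2447 in experiment 2. The high dose arrays gave 2130 and 2346, then 2266 and 2271. The low dose arrays gave 2051 and 2200, then 1876 and 2365. High was above low in 3 of 4 pairs, and in experiment 2 the pair at 4 h went the other way. The group means ran from 2339 at 0 h to 2121 at 4 h in low IL-3, and no neighbours in that order were apart by more than the larger SD. After 4 h the signal stood at 97.2% ± 6.19 of its start with the high dose and at 90.4% ± 8.90 with the low dose (SD, n = 2).

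Cdk4, the gene of the kinase that pairs with all D cyclins, had 3 bright probe sets. Probe set 1422440_at started at 1848 and 1849 in the 2 experiments. The high dose arrays gave 2079 and 2174, then 2143 and 2247. The low dose arrays gave 2040 and 2102, then 2255 and 2255. Every later array was above the 0 h array of its experiment, and the order of the 5 groups was the same in both experiments. Only the step from 0 h to the next group, 2 h in low IL-3, was larger than the SD of either. At 2 h high was above low in both experiments and at 4 h below it in both, but this change of the dose effect between the times did not pass the test (log2 -0.08, SE 0.11, adjusted p = 0.98). Probe set 1422439_a_at started at 2293 and 2500 and stood at 2506 and 2770 after 4 h with the high dose, against 2495 and 3013 with the low dose. Probe set 1422441_x_at stayed between 3065 and 3351 on all 10 arrays, with the 0 h arrays at 3115 and 3211.

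Cdk6, the gene of the second D cyclin kinase, had 1 probe set, 1460291_at, close to the filter with a mean intensity of 72.5. It started at 25.8 in experiment 1 and 76.7 in experiment 2. The high dose arrays gave 53.0 and 63.9, then 35.4 and 106. The low dose arrays gave 39.5 and 110, then 43.0 and 172. The arrays of the 2 experiments did not overlap: experiment 1 averaged 39.3 and experiment 2 averaged 106. No neighbouring groups were apart by more than the larger SD. After 4 h the signal was 137% and 138% of its start with the high dose and 166% and 225% with the low dose.

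No difference between the IL-3 doses passed the adjusted threshold in any of the 12 probe sets, and the Ccnd2 estimates lay on the low side in high IL-3. Over both times 0 of 12 were called, against 0.709% of all tested probe sets, and 4 of 12 had an unadjusted p under 0.05, all for Ccnd2 and all lower in high IL-3, against 1003 of all 11856 in either direction and 259 of 11856 lower. By direction, 0.692% of all tested probe sets were called higher and 0.0169% lower. For Ccnd2, the 7 estimates of high minus low ran from -0.10 in 1416124_at to -0.23 in 1448229_s_at, and all 7 were below 0. The brightest probe set, 1416122_at, differed by -0.14 (SE 0.05, 95% interval -0.25 to -0.03, adjusted p = 0.38), and 1434745_at by -0.16 (SE 0.06, adjusted p = 0.37). For 1448229_s_at the difference was -0.23 (SE 0.09, adjusted p = 0.43), and for 1430127_a_at it was -0.19 (SE 0.08, adjusted p = 0.53). High was below low in all 4 pairs of arrays for 4 of the 12 probe sets, all of Ccnd2, against 7.50% of all tested, and above in all 4 pairs for 0, against 9.83%. These 4 read the RNA of 1 gene. For Ccnd2 1416123_at and 1430127_a_at high was above low in 1 of 4 pairs, and for 1416124_at in 2 of 4. The 95% intervals of 1416123_at, 1416124_at and 1455956_x_at included 0.

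For the other genes the intervals bound the dose effect. Ccnd3 differed by 0.09 (SE 0.06), with a 95% interval of 0.97-fold to 1.16-fold for high over low IL-3. The 3 Cdk4 probe sets differed by 0.02, -0.0008 and -0.001, and their intervals together reached from 0.92-fold to 1.10-fold. Cdk6 differed by -0.29 (SE 0.18), with a wide interval of 0.62-fold to 1.07-fold. Experiment 2 alone gave -0.65 and -0.63 at 2 h and 4 h for Cdk6, and experiment 1 gave 0.31 and -0.20. At 2 h alone 0 of 12 probe sets were called, against 0.0590% of all, and at 4 h alone 0 of 12, against 0.405%. No tested probe set on the array was called for a change of the dose effect between 2 h and 4 h by limma (684 of 11856 and 0 of 12 had an unadjusted p under 0.05). The median dose effect was -0.12 over the 12 probe sets, 7 of which read Ccnd2, and -0.01 over all tested. Without the 2 h low dose array of experiment 2 the median of the 12 was -0.08, and it was -0.04 when the 2 h high dose array of that experiment was dropped.

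**Figure D2:**
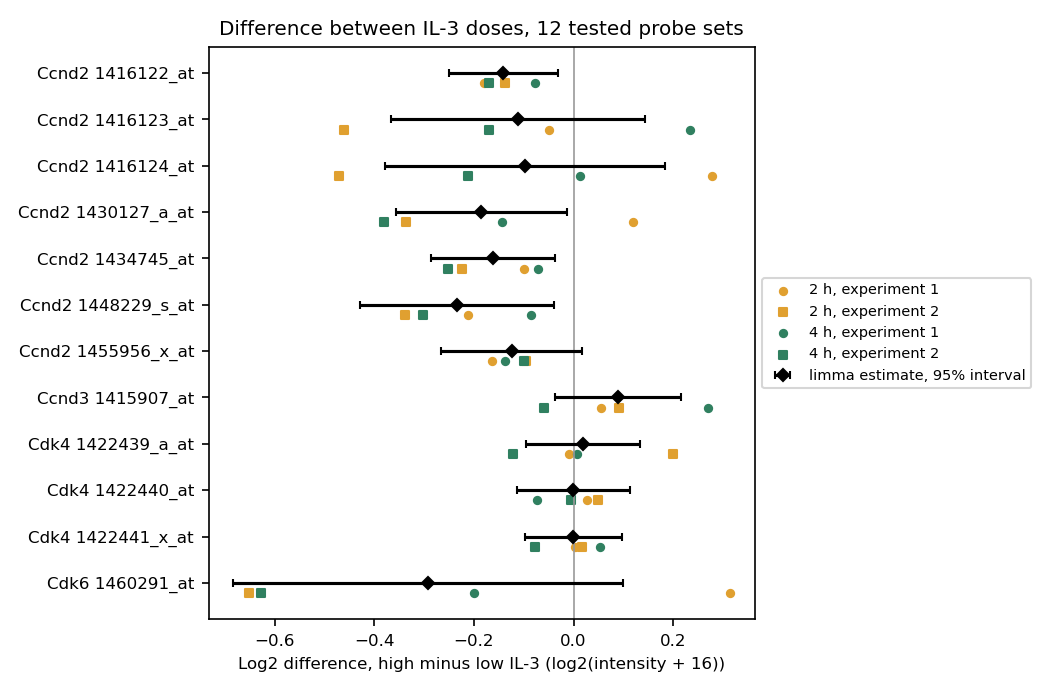
Log2 difference of high minus low IL-3 over both times for the 12 tested probe sets (horizontal axis, on log2(intensity + 16)), with diamonds for the limma estimate and bars for its 95% interval. Small points are the 4 pairs of arrays (orange 2 h, green 4 h, circles experiment 1, squares experiment 2). All 7 Ccnd2 estimates lie left of 0, the Cdk4 estimates lie at 0, and no estimate passed the adjusted threshold.

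The comparisons with 0 h ask whether the RNA was lost once transcription stopped. They all share the 0 h arrays, so their values are given side by side and are not independent of each other. A rise below means a higher relative signal than at 0 h. The paper's supplement ascribes later values above 0 h to measurement noise, because transcription was blocked, and this was not tested here. In high IL-3 from 0 h to 2 h, 2 of 12 probe sets fell, against 22.6% of all tested, and 0 rose, against 3.48%, which makes 2 of 12 against 26.1% in either direction. Both were of Ccnd2: 1416122_at fell by 0.27 on the log2 scale (SE 0.07, adjusted p = 0.013) and 1434745_at fell by 0.24 (SE 0.08, adjusted p = 0.045). The first call was lost without the 0 h array of experiment 1 (-0.23, adjusted p = 0.11) and when the 2 h high dose array of experiment 1 was dropped (-0.25, adjusted p = 0.056), and the second was lost in 8 of the 10 fits with 1 array left out. In low IL-3 over the same 2 h, 0 of 12 were called, against 24.6% of all tested (1.58% higher and 23.0% lower), and 1416122_at differed by -0.11 (SE 0.07, adjusted p = 0.33).

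From 0 h to 4 h in high IL-3, 2 of 12 probe sets rose, against 9.67% of all tested, and 1 fell, against 35.4%, or 3 of 12 against 45.1% in either direction. Ccnd2 1416124_at rose by 0.55 (SE 0.19, adjusted p = 0.026) and Cdk4 1422440_at by 0.25 (SE 0.08, adjusted p = 0.015), while Ccnd2 1416122_at fell by 0.19 (SE 0.07, adjusted p = 0.041). The brightest Cdk4 probe set, 1422441_x_at, was not called, at 0.04 (SE 0.06, adjusted p = 0.65). At the common 75th percentile of all arrays, an alternative scaling, 1416122_at was called in the opposite direction, at 0.23 (adjusted p = 0.018). Its fall was lost without either 0 h array, either low IL-3 array at 2 h or either high IL-3 array at 4 h (adjusted p = 0.072 to 0.21). The rise of 1416124_at was lost without either 0 h array or the 4 h high dose array of experiment 1 (adjusted p = 0.076 to 0.21). The rise of Cdk4 1422440_at was lost without the 0 h array of experiment 2 or either high IL-3 array (adjusted p = 0.067 to 0.13).

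From 0 h to 4 h in low IL-3, 5 of 12 probe sets rose, against 15.3% of all tested, and 0 fell, against 38.3%, with 53.6% of all called in either direction. For Cdk4, 1422440_at rose by 0.28 (SE 0.08, adjusted p = 0.0048) and 1422439_a_at by 0.19 (SE 0.08, adjusted p = 0.042). The brightest Cdk4 probe set, 1422441_x_at, was not called, at 0.05 (SE 0.06, adjusted p = 0.52). For Ccnd2, 1416124_at rose by 0.65 (SE 0.19, adjusted p = 0.0087) and 1448229_s_at by 0.44 (SE 0.13, adjusted p = 0.010), both dimmer probe sets. The bright 1416122_at, 1430127_a_at, 1434745_at and 1455956_x_at were not called, at -0.07, 0.06, 0.08 and -0.04 (adjusted p = 0.42 to 0.76). Dim 1416123_at was not called either, at 0.34 (adjusted p = 0.10). Cdk6 rose by 0.76 (SE 0.26, adjusted p = 0.022). Of the 5 called rises, that of Cdk4 1422440_at remained called with any 1 array left out. The rise of Cdk6 went down to 0.39 (adjusted p = 0.34) without the 4 h low dose array of experiment 2 and was also lost without either 0 h array (adjusted p = 0.078 and 0.061). Without the same low IL-3 array 1448229_s_at was at 0.33 (adjusted p = 0.094), it was at 0.37 without the 0 h array of experiment 2 (adjusted p = 0.081), and 1416124_at was lost without either low IL-3 array at 4 h (adjusted p = 0.056 and 0.055). The rise of 1422439_a_at was lost in 7 of the 10 such fits.

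Ccnd3 was not called in any of these comparisons. From 0 h to 4 h it differed by -0.04 (SE 0.08) with the high dose and by -0.15 (SE 0.08, adjusted p = 0.15) with the low dose, with a 95% interval of 0.80-fold to 1.02-fold in the latter. Without the 4 h low dose array of experiment 2, the change in low IL-3 was -0.27 and was called (adjusted p = 0.032).

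All of these calls rest on the experiment block, and 0 were made without it in any of the 4 comparisons. The direction of a change from 0 h also depends on how the arrays are put on 1 scale. In the study's normalization the median change of all tested probe sets was -0.08 and -0.05 after 2 h in high and low IL-3 and -0.10 and -0.12 after 4 h. When arrays were instead scaled to a common 75th percentile these medians became 0.17, 0.22, 0.31 and 0.30, and with quantile normalization 0.10, 0.12, 0.17 and 0.16. The called probe sets on the whole array moved with them, from 1819 higher and 4535 lower after 4 h in low IL-3 to 5870 higher and 2819 lower at the common 75th percentile. The called probe sets of D cyclins and kinases in that comparison went from 5 higher to 12 higher, with 0 lower in both. Relative to the median of all tested probe sets, 11 of 12 were above it after 4 h in low IL-3 and 9 of 12 after 4 h in high IL-3, and these counts were 11 and 9 at the common 75th percentile, 11 and 9 when scaled to Gapdh, and 9 and 6 with quantile normalization. At 2 h 7 of 12 lay above the median in either dose. Relative to that median after 4 h in low IL-3, Cdk4 1422440_at was 0.40 higher, Ccnd2 1416122_at 0.05 higher, and Ccnd3 0.03 lower (log2 -0.03).

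**Figure D3:**
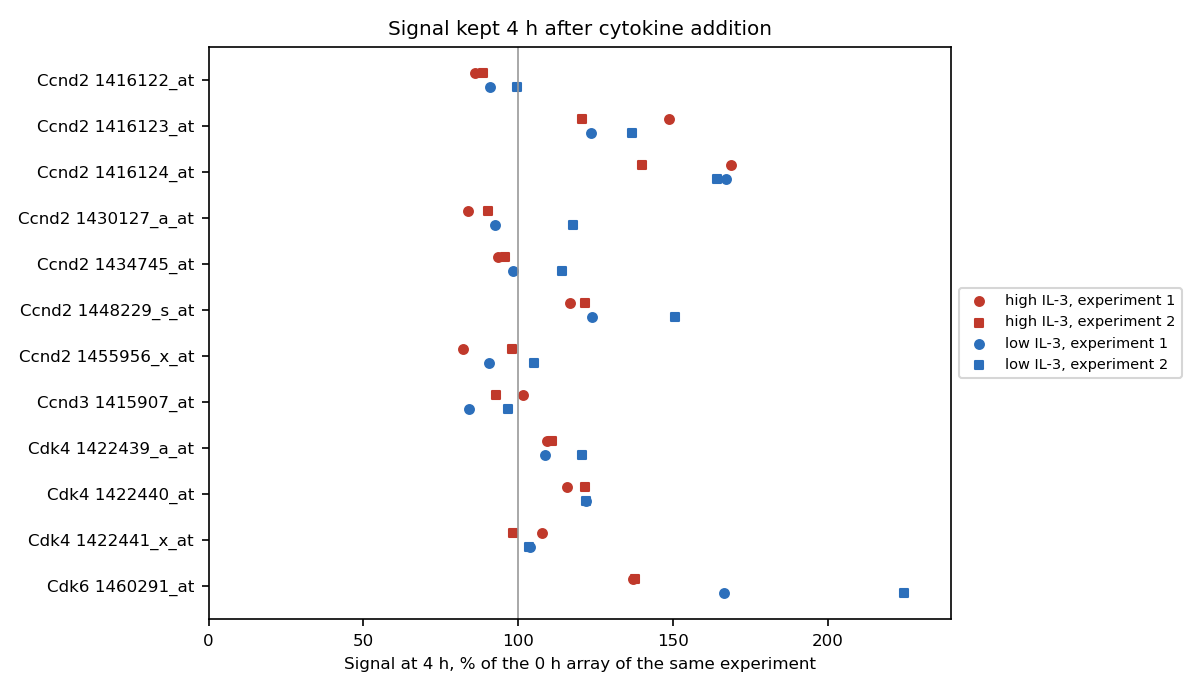
Signal at 4 h as a percentage of its own experiment's signal at 0 h (horizontal axis, from 0) for the 12 tested probe sets, with red for high and blue for low IL-3, circles for experiment 1 and squares for experiment 2. The line marks 100%. The values run from 82.1% in Ccnd2 1455956_x_at to 225% in Cdk6, with no probe set near a loss of most of its signal.

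A half-life was computed for each experiment as ln 2 over the rate at which the log ratio to 0 h fell. Of the 48 curves of these genes (12 probe sets, 2 doses and 2 experiments), 46 had no decay or a half-life beyond 16 h, which is 4 times the last time point and the limit set for reading one. With quantile normalization or a common 75th percentile all 48 were so, and 45 were with scaling to Gapdh. The exceptions in the study's normalization were both of Ccnd2 in high IL-3 in experiment 1, at 13.5 h in 1416122_at and 10.9 h in 1455956_x_at. In experiment 2 the same probe sets were beyond 16 h, with 1416122_at at 17.2 h. Also just beyond the limit were Ccnd2 1430127_a_at in high IL-3, at 16.06 h and 16.4 h, and Ccnd3 in low IL-3 in experiment 1, at 16.06 h. Over all tested probe sets, between 51.7% and 60.6% of curves had no decay or a half-life beyond 16 h, depending on dose and experiment, which became 71.7% to 77.0% at the common 75th percentile and 70.6% to 74.2% with quantile normalization. Among the D cyclins and kinases it was 83.3% of the curves in high IL-3 in experiment 1 and 100% in the other 3 sets of curves.

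The study's own measure of stabilization was the area between the decay curves in high and low IL-3 (g_area). It was positive for 1 of the 12 probe sets (8.33%), 1 of all 15 (6.67%) and 23.3% of all probe sets. The 1 was Ccnd3, with a g_score, the area divided by the variability at its signal, of 0.72 and rank 994 of 22690. Shares of all probe sets for this measure include those under the filter, unlike the 12. Ccnd2 scores ran from -1.02 to -3.10, those of Cdk4 from -0.22 to -1.99, and Cdk6 scored -2.85. This measure caps ratios at 1 for the high dose alone, so a probe set that rises in both doses gets a negative area by construction. With no such limit the area was positive for 4 of 12 (46.1% of all probe sets), and with both curves limited for 3 of 12 (39.9%). With no limit Cdk4 1422440_at scored 0.12 in place of -1.99, and Ccnd2 1416122_at kept -1.28. Ccnd3 scored 1.08 in experiment 1 alone and 0.38 in experiment 2 alone, and with arrays scaled to a common 75th percentile it scored -1.85, where the area was positive for 0 of 12 and for 13.2% of all probe sets.

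The probe sets most like each gene were found by the Pearson correlation over the 10 arrays of log2 values centred within an experiment, and are given as a description. For Ccnd2 1416122_at these were Tardbp (r = 0.959), Runx1 (0.948) and Ide (0.944). Its own 6 other probe sets ranged from -0.409 for 1416124_at to 0.897 for 1455956_x_at, so the Ccnd2 probe sets did not give 1 pattern. Ccnd3 was most like Cflar (0.918), Polr3f (0.916) and Dgka (0.905). Cdk4 1422441_x_at was most like Eif4g3 (0.903), Pebp1 (0.903) and Hipk2 (0.874), with 0.652 and 0.332 for its own other probe sets. Cdk6 was most like Rad51d (0.969), Cox5b (0.953) and Rab2b (0.946). The arrays share the 0 h samples and the normalization. The other genes named are the highest among the tested probe sets of other single genes, fewer than 11856 candidates each.

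The genes around the D cyclins were read from the same fit. Of 76 genes in 7 lists, 62 were on the array and 55 passed the filter, each read by its brightest probe set. After 4 h, 30 of these 55 fell with the high dose and 35 with the low dose, with 0 and 2 that rose. Of all tested probe sets 35.4% and 38.3% fell and 9.67% and 15.3% rose. At the common 75th percentile 23 fell and 16 rose with the high dose, 26 fell and 15 rose with the low dose, with 24 and 12 and with 26 and 10 under quantile normalization. After 2 h, 28 fell and 1 rose with the high dose, against 22.6% and 3.48% of all tested. With the low dose 26 fell and 0 rose, against 23.0% and 1.58%. Between the doses 1 of 55 was called higher over both times, against 0.692% of all tested. At 4 h it was 1 (0 at the common 75th percentile), against 0.388%, and at 2 h 0, against 0.0590%. None was called lower.

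The inhibitors of cyclin-dependent kinases held that 1 gene. Cdkn1a, which encodes p21, was higher in high IL-3 over both times by 0.77 (SE 0.10, adjusted p = 8.8e-04) and at 4 h alone (adjusted p = 0.013). Cdkn2d, which encodes the INK4 protein p19 and was chosen after its values were seen, differed by 0.55 (SE 0.12, adjusted p = 0.0504). When arrays were rescaled in any of 3 ways, 2 of the 4 measured inhibitors were called. All 4 measured inhibitors, Cdkn1a, Cdkn1b, Cdkn2c and Cdkn2d, fell by 4 h in both doses, with medians of -1.63 for the high and -1.96 for the low dose. Of all tested probe sets 35.4% fell with the high and 38.3% with the low dose. At the common 75th percentile and with quantile normalization 3 of the 4 fell in high IL-3. Of the E- and A-type cyclins, Cdk1, Cdk2 and the activating phosphatase Cdc25a, which act after the D cyclins, 5 of 6 fell by 4 h in either dose, with medians of -1.30 and -1.65. None was called by dose: Ccne1, cyclin E1, was 0.41 higher in high IL-3 (SE 0.12, adjusted p = 0.18) and Ccna2, cyclin A2, 0.27 lower (log2 -0.27, SE 0.08, adjusted p = 0.16).

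All 3 subunits of the CDK-activating kinase, which phosphorylates CDK4 and CDK6, fell by 4 h in both doses, and 2 of 3 did at the common 75th percentile. By dose 0 of 3 were called, with Ccnh, its cyclin, at 0.23 (SE 0.07, adjusted p = 0.20) and Mnat1, its assembly factor, at 0.10 (SE 0.10, adjusted p = 0.87). Of the targets of the D cyclin kinases, the retinoblastoma family with the E2F and DP factors, 5 of 10 fell by 4 h in either dose. Of all tested probe sets 35.4% fell with the high and 38.3% with the low dose. In this list E2f8, a repressing E2F, had the smallest p for dose at 0.19 (SE 0.10, adjusted p = 0.69), followed by E2f6 at -0.15 (SE 0.09, adjusted p = 0.71). Of the genes for turnover and folding of D cyclins and their kinases, 5 of 14 fell by 4 h with the high dose, against 35.4% of all tested. With the low dose 9 of 14 fell, against 38.3%, and 1 rose, against 15.3%. That 1 was Cdc37, the chaperone partner of CDK4, at 0.34 (SE 0.11, adjusted p = 0.018). By dose 0 of 14 were called, with Fbxo31, an F-box protein that binds cyclin D1, at -0.37 (SE 0.14, adjusted p = 0.37) and Ambra1, a ubiquitin ligase adaptor for D cyclins, at 0.26 (SE 0.14, adjusted p = 0.65).

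Of the other cyclins, 6 of 11 fell by 4 h with the high dose, against 35.4% of all tested, and 7 of 11 with the low dose, against 38.3%. By dose 0 of 11 were called, with Ccnl1, a cyclin of RNA splicing, at -0.27 (SE 0.10, adjusted p = 0.42) and Ccng2, cyclin G2, at 0.30 (SE 0.16, adjusted p = 0.68). Of the other cyclin-dependent kinases, 2 of 7 fell by 4 h in either dose, against the same shares of all tested. In low IL-3 1 of 7 rose, against 15.3%, which was Cdk5 at 0.42 (SE 0.15, adjusted p = 0.026). By dose 0 of 7 were called, with Cdk9, a kinase of transcription elongation, at 0.19 (SE 0.10, adjusted p = 0.67) and Cdk8, a kinase of the Mediator complex, at 0.13 (SE 0.09, adjusted p = 0.79). At 4 h in low IL-3 the list medians were -0.45 for the retinoblastoma and E2F genes, -1.02 for the CDK-activating kinase, -0.31 for turnover and folding, -0.35 for other cyclins and -0.16 for other kinases. The median was 0.14 for the 12 probe sets of D cyclins and their kinases and -0.12 for all tested. Of those 12, 7 read Ccnd2 and 3 read Cdk4, while the lists count 1 probe set per gene, so these medians are of unlike units. The brightest tested probe sets of Ccnd2, Ccnd3, Cdk4 and Cdk6 changed by -0.07, -0.15, 0.05 and 0.76. The median of the D cyclins and kinases was 0.06 with a filter at 200, 0.08 without the 4 h low dose array of experiment 2 and 0.23 without that of experiment 1. At the common 75th percentile the medians of turnover and folding, other cyclins and other kinases turned to 0.10, 0.09 and 0.26, and that of other kinases to 0.28 with quantile normalization, while the D cyclins and kinases stood at 0.58 and 0.29. The difference between the lists was not tested.

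**Figure D4:**
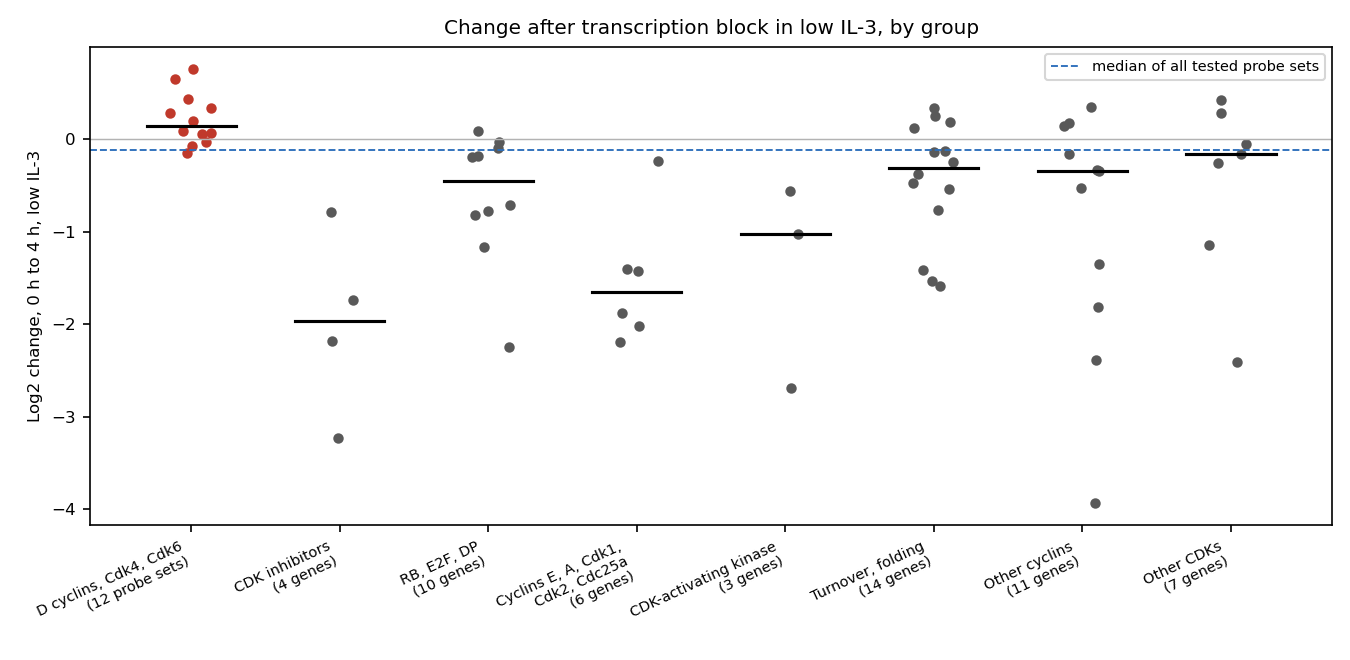
Log2 change from 0 h to 4 h in low IL-3 (vertical axis, on log2(intensity + 16)) for the 12 probe sets of D cyclins, Cdk4 and Cdk6 (red) and for the measured genes of 7 lists around them (grey, 1 point per gene). Black lines are medians, and the dashed line is the median of all tested probe sets at -0.12. Of the red points 7 read Ccnd2 and 3 read Cdk4, so the red and grey medians are of unlike units. The D cyclin and kinase probe sets lie between -0.15 and 0.76, while the inhibitors reach -3.23 and the other cyclins -3.93.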

How the data were processed

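RNA of 32Dcl3 cells was measured on 10 Affymetrix mouse expression arrays. The authors deposited linear intensity values for 22690 probe sets, made with dChip at its default settings with all arrays normalised together (its version was not given in the sources used). The platform annotation gave 1 gene for 20393 probe sets, several for 691 and none for 1606, and a probe set with several was not named. Groups came from the sample labels.

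R 4.3.3 with limma 3.58.1 was used to test probe sets averaging at least 50, as log2(intensity + 16), with 5 groups, the experiment as a block and a variance trend, and Benjamini-Hochberg adjustment over the 11856 tested at a threshold of 0.05. The block follows the design, in which each experiment divided 1 culture over its 5 arrays. Deviations from the group means were also shared within an experiment, with correlations between groups of 0.762 to 0.887. The fit was tested on simulated data. Replicate arrays of a group correlated at 0.975 to 0.984 on the log2 scale. With 2 arrays per group their number limits precision.

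The areas (g_area, g_score) were rebuilt after the supplemental methods, and half-lives are ln 2 over a slope through 0 h. Named genes were all probe sets of the 5 genes, the list members called by dose or otherwise up to 2 with the smallest p, the 3 most alike probe sets, and cell markers. Members and lists were chosen with earlier results of these data known. Alternatives were pseudocounts of 1 and 64, no filter or a filter at 200, quantile normalization, scaling to Gapdh or to the 75th percentile, no variance trend, no block, and each array left out. Python 3.11.15, numpy 2.4.6, pandas 2.3.3 and matplotlib 3.10.9 were also used.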

Additional observations from a re-analysis of the deposited data

How the results depend on the processing

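None of the 12 probe sets was called for the IL-3 dose under any alternative run. Single values were counted for the dose effect over both times, the changes to 4 h, and any value called in the fit described above. Of these, 596 kept their direction and side of the threshold. Another 63 kept their direction but lost a call, and 18 kept it and gained one. A further 36 turned their sign, 7 of them to a called value. Single values of the other comparisons were not counted, and some turned their sign too. Cdk6 by dose at 2 h ranged from -0.719 to 0.381 with arrays left out. The causes were not tested, except that a filter at 200 leaves out dim probe sets. The numbers of called probe sets changed as follows. Without a filter, the falls from 0 h to 2 h in high IL-3 went from 2 to 1, the rises to 4 h from 2 to 1 in high and from 5 to 3 in low IL-3, and the fall to 4 h in high IL-3 from 1 to 0. A filter at 200 left 1 and 3 of those rises. At the common 75th percentile 4, 11, 6 and 12 rose (2 h and 4 h in high, 2 h and 4 h in low IL-3) and 0 fell, while 3583, 5954, 4259 and 5870 of all 11870 tested rose. Quantile normalization gave 2, 6, 4 and 9 rises, with 1 fall at 2 h and 0 falls at 4 h in high IL-3, while 2477, 4708, 2666 and 4837 of all 11862 rose. Scaling to Gapdh gave 1 rise at 2 h and 4 in place of 5 rises at 4 h with the low dose, and 1 and 0 falls at 2 h and 4 h with the high dose. Without the variance trend 1 and 3 rose by 4 h in high and low IL-3 and 0 fell. Without the replicate block 0 rose and 0 fell in every comparison, and the other calls, by dose, stayed at 0. Leaving out each array in turn gave 0 to 1 rises and 0 to 2 falls at 2 h in high IL-3, 0 to 2 rises and 0 to 1 falls at 4 h in high IL-3, and with the low dose 0 to 1 rises at 2 h and 1 to 5 rises with 0 to 1 falls at 4 h. A positive g_area went from 1 probe set to 4 with no limit on ratios, 3 with both curves limited, 0 at the common 75th percentile (13.2% of all probe sets), and 1 to 2 with an experiment left out (26.9% and 29.9% of all, against 23.3%).

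The counted values that turned their sign were as follows. By dose, scaling to Gapdh gave 0.0167 for Cdk4 1422440_at and 0.0164 for 1422441_x_at. At the common 75th percentile Ccnd2 1434745_at stood at 0.0277 by 2 h with the high dose. To 4 h in high IL-3 the value was 0.234 for Ccnd2 1416122_at, 0.227 for 1430127_a_at, 0.349 for 1434745_at, 0.273 for 1455956_x_at and 0.386 for Ccnd3, all but 1430127_a_at called higher. To 4 h in low IL-3 the value was 0.371 for 1416122_at, 0.404 for 1455956_x_at and 0.293 for Ccnd3, all called higher. With Gapdh, Ccnd3 was at 0.00943 to 4 h in high IL-3. With quantile normalization, 1430127_a_at was at 0.0148, 1434745_at at 0.0743, 1455956_x_at at 0.0618 and Ccnd3 at 0.115 to 4 h in high IL-3, and 1416122_at at 0.0443, 1455956_x_at at 0.176 and Ccnd3 at 0.000738 to 4 h in low IL-3. With arrays left out, dose effects ranged from -0.256 to 0.0600 for Ccnd2 1416124_at, -0.0161 to 0.0537 for Cdk4 1422439_a_at, -0.0117 to 0.0101 for 1422440_at and -0.0241 to 0.0219 for 1422441_x_at. Changes to 4 h ranged from -0.00648 to 0.0856 for 1422441_x_at and -0.129 to 0.0437 for Ccnd3 in high IL-3, and from -0.153 to 0.0799 for 1455956_x_at and -0.0892 to 0.213 for 1430127_a_at in low IL-3.

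With 2 arrays a group, of 1 cell line, the precision is low, and the 3 Ccnd1 probe sets were too dim to follow. How dim signals and cross-hybridisation bear on the _s, _x and dim probe sets was not tested.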
